A study of Mus musculus with 14 samples.

Results

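The genes described here are Nr4a1, Nr4a2 and Nr4a3, the 3 members of the NR4A family of orphan nuclear receptors, out of 21851 protein-coding genes in the mouse annotation. The rule that chose them uses gene family and position and no measured value, though earlier results of these data were known. All peaks of the 12 ChIP-seq lists that overlapped a gene body or the 50 kb on either side of it were taken, and a promoter was set as 1000 bp upstream to 100 bp downstream of a transcription start site. The cells were 3T3-L1, mouse preadipocytes that turn into fat cells in culture, and were used after 4 days of differentiation. They were left untreated (control) or exposed for 1 h to forskolin (FSK, 10 µM), which activates adenylyl cyclase and raises cAMP, to the cytokine TNFα (10 ng/ml), or to FSK/TNFα together. Chromatin was precipitated with an antibody to CRTC2, to NF-κB p65 or to H3AcK27, the acetylated histone mark of active promoters and enhancers, with 1 library for each antibody and treatment.

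NR4A receptors act without a known physiological ligand, and their activity is set mainly by how much of them is made. They are immediate early genes whose transcription rises within minutes to hours of a cAMP or growth factor signal, and Nr4a1 (Nur77), Nr4a2 (Nurr1) and Nr4a3 (Nor1) are classic targets of CREB. CRTC2 is a coactivator that is held in the cytoplasm by phosphorylation, enters the nucleus when cAMP rises and binds CREB on cAMP response elements (CREs). In fat cells NR4A genes are known to respond to β-adrenergic signals, and the receptors bind DNA as monomers at the NBRE, AAAGGTCA. p65 is the NF-κB subunit that enters the nucleus after TNFα.

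By the GENCODE annotation on GRCm38, Nr4a1 (ENSMUSG00000023034) was on chromosome 15, plus strand, between 101254269 and 101274795. It had 2 start sites, the main one at 101266846 and another 12577 bp upstream at 101254269. Nr4a2 (ENSMUSG00000026826) was on chromosome 2, minus strand, between 57106830 and 57124003, with its main start at 57124003 and internal starts at 57115038 and 57113072. Nr4a3 (ENSMUSG00000028341) was on chromosome 4, plus strand, between 48045153 and 48086447, with 1 start at 48045153. The main start was the one nearest to the RefSeq start, which was at the same base for Nr4a1 and Nr4a2 and 152 bp downstream for Nr4a3.

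The 250 bp just upstream of each main start are shown first because all 3 held several CREs and overlapped CRTC2 peaks listed with FSK and with FSK/TNFα. They are written 5′ to 3′ along the gene from the RefSeq GRCm38 genome, with each CRE core, TGACG or its complement CGTCA, in capitals.
Nr4a1, chr15:101266596-101266845, plus strand: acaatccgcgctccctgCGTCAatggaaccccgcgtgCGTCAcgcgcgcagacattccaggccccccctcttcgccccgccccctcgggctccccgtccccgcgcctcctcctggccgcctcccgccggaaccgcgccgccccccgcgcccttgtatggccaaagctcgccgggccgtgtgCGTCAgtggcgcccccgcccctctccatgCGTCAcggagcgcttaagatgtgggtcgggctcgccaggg
Nr4a2, chr2:57124004-57124253, minus strand: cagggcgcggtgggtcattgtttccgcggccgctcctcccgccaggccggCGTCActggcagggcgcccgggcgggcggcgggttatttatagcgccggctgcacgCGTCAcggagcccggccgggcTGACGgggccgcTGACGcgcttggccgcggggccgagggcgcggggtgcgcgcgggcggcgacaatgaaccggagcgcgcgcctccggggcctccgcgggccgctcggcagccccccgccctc
Nr4a3, chr4:48044903-48045152, plus strand: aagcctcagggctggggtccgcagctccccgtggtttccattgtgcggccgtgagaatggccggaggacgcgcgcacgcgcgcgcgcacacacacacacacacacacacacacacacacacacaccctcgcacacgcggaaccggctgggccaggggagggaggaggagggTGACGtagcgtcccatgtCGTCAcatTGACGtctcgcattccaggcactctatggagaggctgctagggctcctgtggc
Nr4a1 and Nr4a2 each held 4 CRE cores in this window and Nr4a3 held 3. In the same window upstream of all 41438 protein-coding start sites, 20.4% had at least 1 core, 0.941% had at least 3 and 0.193% had at least 4. The first base of the cores lay 233, 213, 69 and 40 bp upstream of the start at Nr4a1, 200, 144, 123 and 111 bp upstream at Nr4a2, and 79, 61 and 53 bp upstream at Nr4a3. None of these 3 windows had a full CRE, TGACGTCA, an AP1 site (TGACTCA or TGAGTCA), an NBRE or the NF-κB consensus. These are rare upstream of all start sites, at 1.99%, 3.73%, 1.03% and 0.135%, so their absence from 3 windows is no result. A full CRE was found upstream of the internal Nr4a2 start at 57115038, where no CRTC2 promoter peak was listed under any treatment.

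For each gene, the strongest CRTC2 peak in the FSK list outside all promoters, also those of other genes, is shown for comparison, since these peaks held further CREs. At Nr4a1 this left out a higher peak at the promoter of a neighbouring gene, Grasp, which held no CRE core. AP1 sites are in capitals as well.
Nr4a1, 12.9 kb downstream of the main start, chr15:101279646-101279806, plus strand: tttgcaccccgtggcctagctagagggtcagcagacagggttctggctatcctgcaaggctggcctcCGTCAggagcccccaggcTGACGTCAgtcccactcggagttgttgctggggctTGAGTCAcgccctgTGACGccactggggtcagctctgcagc
Nr4a2, intron, chr2:57116732-57116892, minus strand: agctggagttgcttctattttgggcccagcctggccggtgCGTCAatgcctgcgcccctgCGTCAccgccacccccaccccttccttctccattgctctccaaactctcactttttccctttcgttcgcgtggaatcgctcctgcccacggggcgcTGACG
Nr4a3, 1.68 kb upstream of the start, chr4:48043397-48043557, plus strand: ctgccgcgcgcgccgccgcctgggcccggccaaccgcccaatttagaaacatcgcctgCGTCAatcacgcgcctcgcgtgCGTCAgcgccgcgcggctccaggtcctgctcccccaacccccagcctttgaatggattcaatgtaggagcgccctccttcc
The Nr4a1 sequence held a full CRE and, further on, an AP1 site, TGAGTCA. The Nr4a2 and Nr4a3 sequences each held the letters TGCGTCA at 2 places, and all 4 CRE cores upstream of the main Nr4a1 start were part of the same 7 letters. These letters contain the complement of the CRE core and were searched only after the sequences had been read, so their counts are a description. They were present upstream of 2.2% of all start sites, and the main Nr4a1 start was the single one of 41438, 0.00241%, with as many as 4. Among 200 bp windows centered on the 11749 CRTC2 peaks listed with FSK, 3.78% held TGCGTCA, and 14 windows, 0.119%, held it at 2 or more places. Of these 14 windows, 3 belonged to the NR4A genes: the Nr4a1 start, the Nr4a2 intron and the peak 1.68 kb upstream of Nr4a3. With FSK/TNFα, the same places were 3 of 15 such windows among 14171 peaks. The other 11 windows with FSK included peaks at the start sites of Usp2, a deubiquitinase, of Isy1, a splicing factor, and of Rheb, the GTPase that activates mTORC1, and these genes were chosen after their values were seen.

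CRTC2 peaks were listed at the main promoters of all 3 genes with FSK and with FSK/TNFα, and at none of them in control cells or with TNFα alone. Peak height is given as normalized tags, the sequenced fragments in a peak per 10000000 of its library, and brackets of counting error are exact 95% Poisson intervals. A place that is not in a list missed a criterion of peak calling and may still hold some tags. The criteria include 4-fold over input and score, and fold values over the surrounding 10 kb were deposited as well. The weakest listed CRTC2 peaks had 4.24 normalized tags in control, 4.87 with FSK, 3.02 with TNFα and 3.46 with FSK/TNFα. With 1 library for each treatment no difference between treatments had a replicate check, and the intervals cover counting error only.

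Nr4a1 had the highest start-site peak of the family in both forskolin libraries. Its main promoter peak was not listed in control, had 104.0 normalized tags (89.0 to 121.0) with FSK, was not listed with TNFα and had 62.9 (54.5 to 72.2) with FSK/TNFα. By score, the number of tags with at most 1 counted at each position, it ranked 29 of 11749 peaks with FSK and 108 of 14171 with FSK/TNFα. It was 566-fold over input with FSK and 171-fold with FSK/TNFα. The scaled input under these peaks was 0.3 and 1.0 tags, at or near the lowest values of the lists, 0.3 and 0.5. The lowest value may stand for no input tag, so the exact folds rest on at most about 1 input tag. The FSK peak (101266783 to 101266943) was centered 17 bp downstream of the start, in the 5′ untranslated exon. The FSK/TNFα peak (101266744 to 101266906) was centered 21 bp upstream. Of the 4 CRE cores shown above, 1 lay inside the FSK peak and 2 inside the FSK/TNFα peak. Among genes with a CRTC2 promoter peak, Nr4a1 ranked 14 of 5856 with FSK and 52 of 6186 with FSK/TNFα, where the medians were 15.8 and 14.5 normalized tags.

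Nr4a3 stood between its relatives at the start site. The promoter peak was not listed in control, had 28.0 normalized tags (20.5 to 37.3) with FSK, was not listed with TNFα and had 38.4 (31.9 to 45.8) with FSK/TNFα. These peaks were centered 9 and 66 bp upstream of the start, and the 3 CRE cores of the window shown above lay inside both. They ranked 666 and 375 by score. The folds over input, 15.2 and 209, rest on scaled input of 3.0 and 0.5 tags and are not comparable.

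Nr4a2 had the lowest start-site peak. It was not listed in control, had 12.2 normalized tags (7.43 to 18.8) with FSK, was not listed with TNFα and had 16 (11.9 to 21.1) with FSK/TNFα. With FSK it ranked 4096 of 5856 genes with a promoter peak, below their median, and with FSK/TNFα 2538 of 6186. Both peaks lay upstream of the start, centered at 243 and 180 bp, and held 1 and 4 of the 4 CRE cores shown above. The order Nr4a1, Nr4a3, Nr4a2 held with FSK and with FSK/TNFα, and the counting intervals of neighbours in this order did not overlap in either library.

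**Figure D1:**
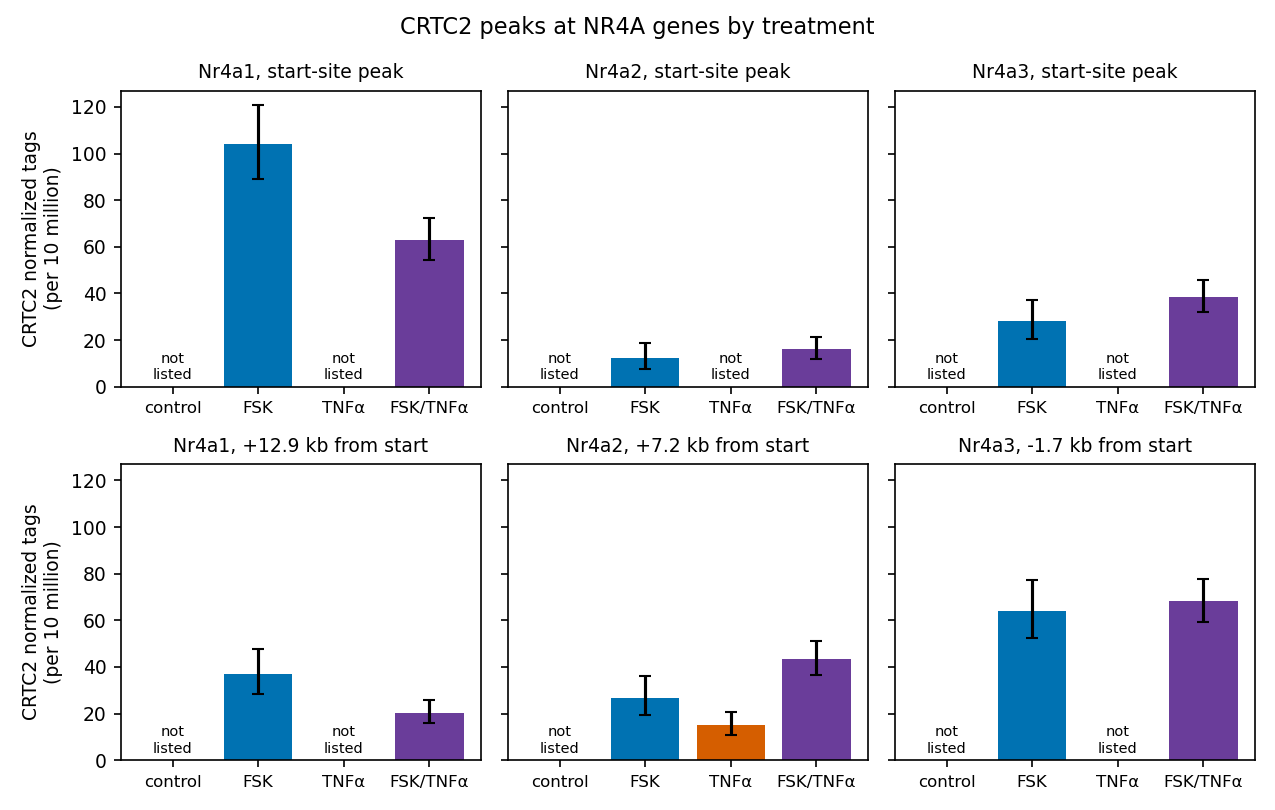
CRTC2 normalized tags (per 10000000 tags) at the main start site (upper row) and at the strongest peak outside promoters (lower row) of each NR4A gene in the 4 libraries, 1 library per bar, with exact 95% Poisson intervals. The start-site peaks reached 104.0, 12.2 and 28.0 with FSK, and none was listed in control or with TNFα.

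Read against all genes, a CRTC2 promoter peak was present at 0 of the 3 NR4A genes in control, where 11.4% of protein-coding genes had one. With FSK all 3 had one against 26.8% of genes, and with FSK/TNFα all 3 against 28.3%. With TNFα 39.1% of genes had one, the highest share of the 4 libraries, and Nr4a1 alone did, through a peak of 8.31 normalized tags at its upstream start. At that upstream start, peaks of 15.2 and 12.6 normalized tags were also listed with FSK and with FSK/TNFα, each with 2 CRE cores in its 200 bp window.

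The listing with FSK and FSK/TNFα but not in control or TNFα was uncommon. It was found at 341 of 41438 start sites, or 0.823%, and the 3 main NR4A starts were among them. Of the 10438 start sites with a CRTC2 promoter peak under FSK, 92.0% had one with TNFα as well, 34.0% had one in control and 3.27% had the listing of the main NR4A starts. Peaks of the control and TNFα libraries were called against untreated input chromatin, and those of the FSK and FSK/TNFα libraries against FSK-treated input chromatin, so this listing and the choice of input cannot be told apart from the lists alone. All 6 main promoter peaks stayed listed when 8-fold over input was required, and with each list limited to its 5188 best-scored peaks all but the Nr4a2 peak with FSK did.

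Around the genes, overlapping CRTC2 peaks of the 4 lists formed 27 loci, of which 19 belonged to Nr4a1, 4 to Nr4a2 and 4 to Nr4a3. By treatment, 3 of the 27 were listed in control, 18 with FSK, 11 with TNFα and 18 with FSK/TNFα. The lists differ in size, with 5188, 11749, 19527 and 14171 peaks in the same order. The share of all CRTC2 loci in each list was not computed, so these 4 counts are a description only. Listing in both forskolin libraries and in neither other one applied to 7 loci, against 6.42% of all 33769 CRTC2 loci of the genome. These 7 were the main start, the peak 12.9 kb downstream and peaks 19.8 kb upstream and 42.2 kb downstream at Nr4a1, the start of Nr4a2, and the start and the peak 1.69 kb upstream at Nr4a3. Among the 2167 such loci of the genome, the Nr4a1 start ranked 8 and the upstream Nr4a3 locus 15 by normalized tags with FSK, and they ranked 18 and 14 with FSK/TNFα. The median of these loci was 14.0 and 13.8 normalized tags.

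Nr4a1 had 12 CRTC2 peaks in its body and 50 kb flanks with FSK and 11 with FSK/TNFα, where the median gene had 1. As many or more were found at 0.142% and 0.293% of genes. It had 3 in control and 7 with TNFα, and 6.0% and 10.3% of genes had at least as many. Several of these peaks lay at neighbouring genes whose start sites fall in the window. At the promoter of Grasp, which encodes a scaffold protein, CRTC2 had 20.7 normalized tags in control, 58.4 with FSK, 39.3 with TNFα and 55.3 with FSK/TNFα. This locus, 42.6 kb upstream of the main Nr4a1 start, was the only one of the 27 listed under all 4 treatments. At the promoter of Atg101, a subunit of the complex that starts autophagy, a locus 17.5 kb downstream had 8.47 normalized tags in control, 29.2 with FSK and 27.6 with TNFα. With FSK/TNFα a separate Atg101 promoter peak of 11.6 lay closer to Nr4a1, at 17.2 kb. A peak of 5.34 with FSK/TNFα lay in the body of Acvr1b, an activin receptor gene.

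The other Nr4a1 loci lay in no promoter or body of another protein-coding gene. The locus 12.9 kb downstream of the main start, past the end of the gene, had 37.1 normalized tags (28.4 to 47.7) with FSK and 20.4 (15.8 to 26.0) with FSK/TNFα and was not listed in control or with TNFα. It ranked 331 and 1277 by score and was the only 1 of the 27 loci with an AP1 site, which 12.2% of all CRTC2 peaks held with FSK and 14.5% with FSK/TNFα. A group of loci about 20 kb upstream was listed in every library, but at shifted places. Its locus at 20.5 kb had 26.2 normalized tags with FSK, 17.8 with TNFα and 32.1 with FSK/TNFα. The locus at 20.2 kb was listed in control, with 16.9, and with TNFα, with 20.4. The locus at 19.8 kb was listed with FSK, with 11.0, and with FSK/TNFα, with 18.9. At 25.8 kb upstream a peak of 28.6 was listed with FSK alone, and at 25.6 kb one of 10.1 with FSK/TNFα alone. The remaining 7 loci, from 51.5 kb upstream to 42.2 kb downstream, had between 9.13 and 19.2 normalized tags where listed.

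At Nr4a2 the strongest CRTC2 peak was not at the main start but in an intron, 7.16 kb into the gene and 1.77 kb upstream of the internal start at 57115038. This locus was not listed in control and reached 26.8 normalized tags with FSK (interval 19.4 to 35.9), 15.1 with TNFα (10.8 to 20.6) and 43.4 with FSK/TNFα (36.4 to 51.3). It ranked 827, 8278 and 251 in the 3 lists. It was higher than the start-site peak in both forskolin libraries and, unlike the start, was listed with TNFα. A smaller intronic peak of 5.29 was listed with TNFα alone, and a peak of 9.12, 32.9 kb upstream, with FSK/TNFα alone.

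At Nr4a3 the strongest peak lay 1.69 kb upstream of the start. It was not listed in control, had 63.9 normalized tags (52.2 to 77.3) with FSK, was not listed with TNFα and had 68.2 (59.4 to 77.9) with FSK/TNFα. With ranks of 70 and 135 by score it was close in height to the Nr4a1 start with FSK/TNFα, where the intervals overlapped, and below it with FSK, where they did not. A further locus 2.27 kb upstream had 35.3 with FSK, 20 with TNFα and 28.6 with FSK/TNFα. The remaining locus, at the promoter of Stx17, a SNARE protein of autophagosome fusion, had 9.13, 30.2 and 11.3 in the same order and so was highest with TNFα, unlike the loci upstream of Nr4a3.

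**Figure D2:**
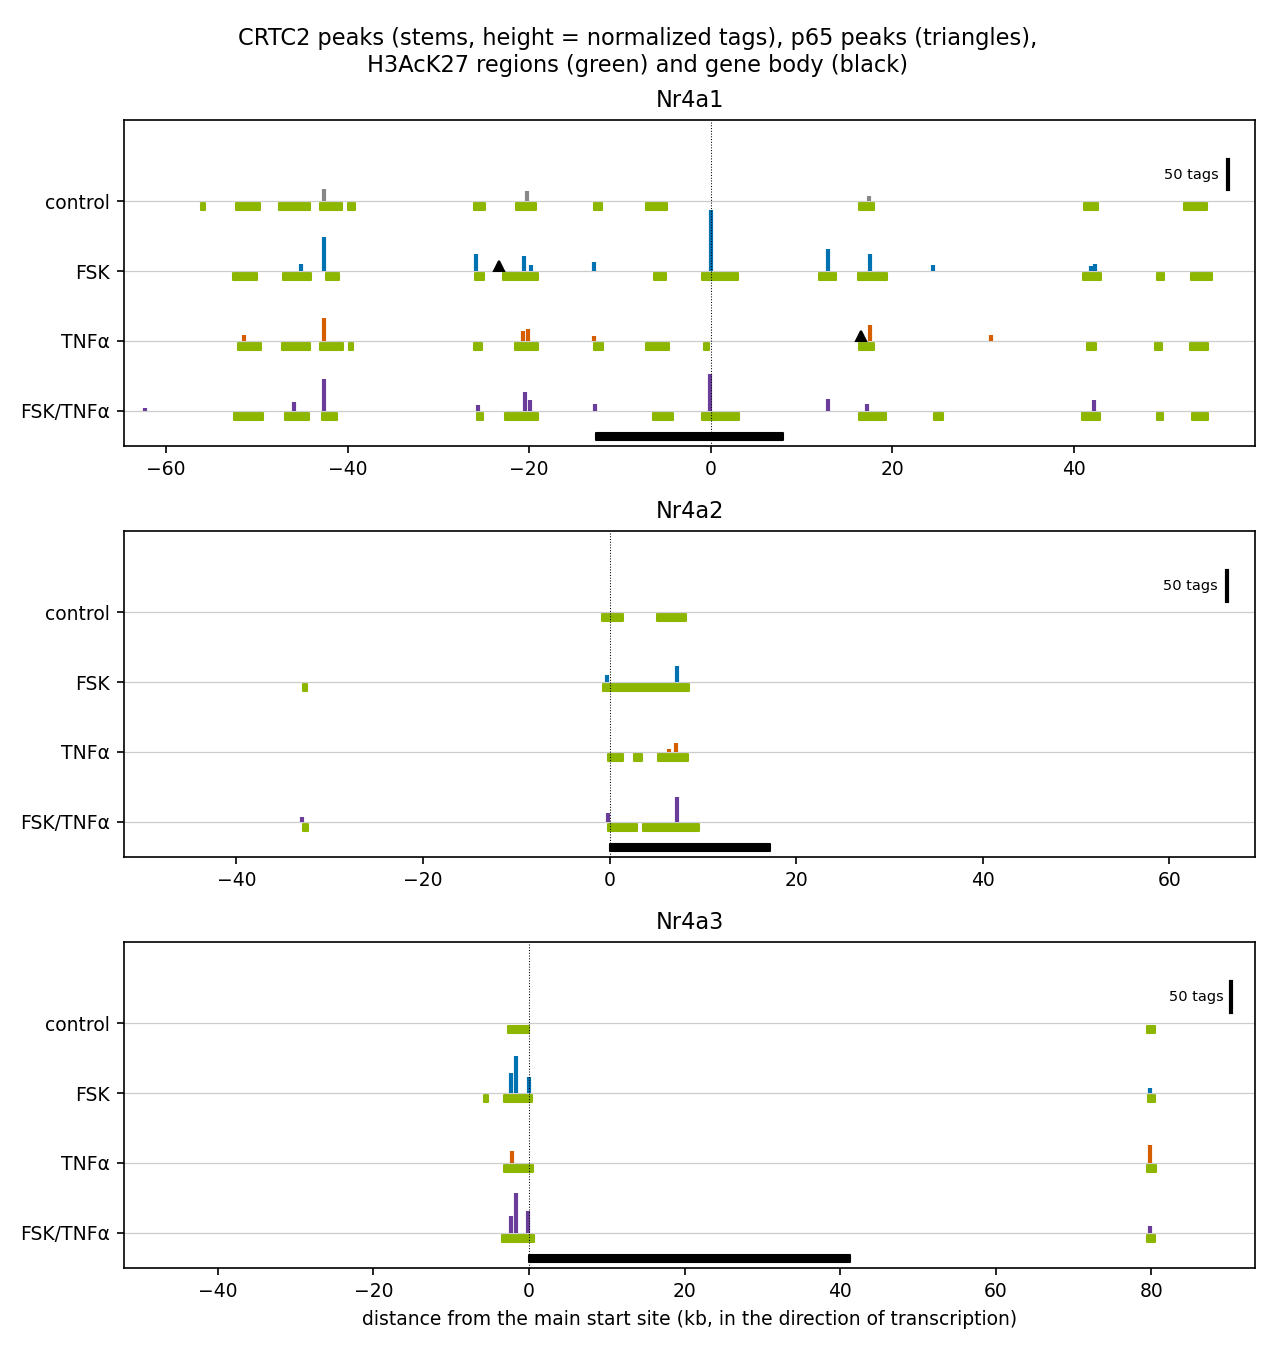
Peaks in each gene body (black bar) and its 50 kb flanks by distance from the main start site in kb, 1 row per treatment. Stem height is CRTC2 normalized tags against the 50-tag scale bar, triangles are p65 peaks and green bars are H3AcK27 regions. Stems at the dotted line of the start site appear in the FSK and FSK/TNFα rows of all 3 genes, and Nr4a1 has 19 CRTC2 loci against 4 at each of the others.

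CRE cores were present in most NR4A peaks of the forskolin libraries, many of which are the same places in both. In 200 bp centered on the peak, a CRE core was found in 11 of 18 member peaks with FSK, against 26.3% of all CRTC2 peaks of that library. With FSK/TNFα it was also found in 11 of 18, against 25.2%. At Nr4a1, which held most of the peaks, a core was in 6 of 12 with FSK and 5 of 11 with FSK/TNFα. It was in 2 of 2 and 3 of 3 at Nr4a2, and in 3 of 4 in both libraries at Nr4a3. At Nr4a2 and Nr4a3 the peaks without a core in the forskolin libraries were those at Stx17. An NBRE or the NF-κB consensus was in none of the 27 loci. Among all CRTC2 peaks an NBRE was in 1.2% with FSK and 1.22% with FSK/TNFα, and the NF-κB consensus in 0.136% and 0.409%, so these counts of 0 are no result about the NR4A genes.

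Whether TNFα changed CRTC2 at these genes on top of FSK was compared between the FSK and FSK/TNFα lists. Ratios are FSK/TNFα over FSK in normalized tags, with exact conditional 95% intervals of counting error, and the comparison was added because no NR4A gene had a promoter peak in control. Peaks were called separately in the 2 libraries, so the stretches counted were not the same, and the intervals do not cover that shift. The paired peaks, 161 and 163 bp long, shared 124 bp at the Nr4a1 start, 99 bp at the Nr4a2 start and 105 bp at the Nr4a3 start. At the Nr4a1 start the ratio was 0.605 (0.49 to 0.746). At the Nr4a2 start it was 1.31 (0.772 to 2.33) and at the Nr4a3 start 1.37 (0.969 to 1.97). The listed peak at the Nr4a1 start was thus lower with FSK/TNFα, with an interval below 1, and the intervals of the other 2 included 1. The intervals treat every tag as independent. At the Nr4a1 start the 171 tags with FSK and 200 with FSK/TNFα had scores of 85 and 72, so the interval may be too narrow. How much of the difference comes from the shifted peaks was not tested. The median over the 4594 genes with a promoter peak in both lists was 0.959, and 6.9% of them differed by at least 2-fold in either direction, while none of the 3 NR4A starts did.

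Over the 13 member loci listed in both libraries the ratios ran from 0.55 to 1.72. The Nr4a1 locus 12.9 kb downstream had 0.55 (0.382 to 0.794), with 122 bp shared. The Nr4a2 intron had 1.62 (1.15 to 2.33). There the FSK peak lay wholly inside the FSK/TNFα peak, with 161 bp shared, and the interval did not overlap that of the Nr4a1 start. The upstream Nr4a3 locus at 1.69 kb had 1.07 (0.842 to 1.36), and that at 2.27 kb had 0.81 (0.577 to 1.15). The other 5 loci around Nr4a1 had ratios between 0.829 and 1.72. The Grasp promoter had 0.947 (0.735 to 1.23) and the upstream start 0.829 (0.489 to 1.42), and both intervals overlapped that of the Nr4a1 start. The locus 19.8 kb upstream had 1.72 (1.0 to 3.1). At the loci 20.5 kb upstream, with 1.23 (0.85 to 1.79), and 42.2 kb downstream, with 1.57 (0.938 to 2.76), the paired peaks shared 46 and 43 bp. The FSK library was the shallower of the pair, with 16438040 tags against 31807394, and no replicate shows how far such ratios vary between libraries.

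**Figure D3:**
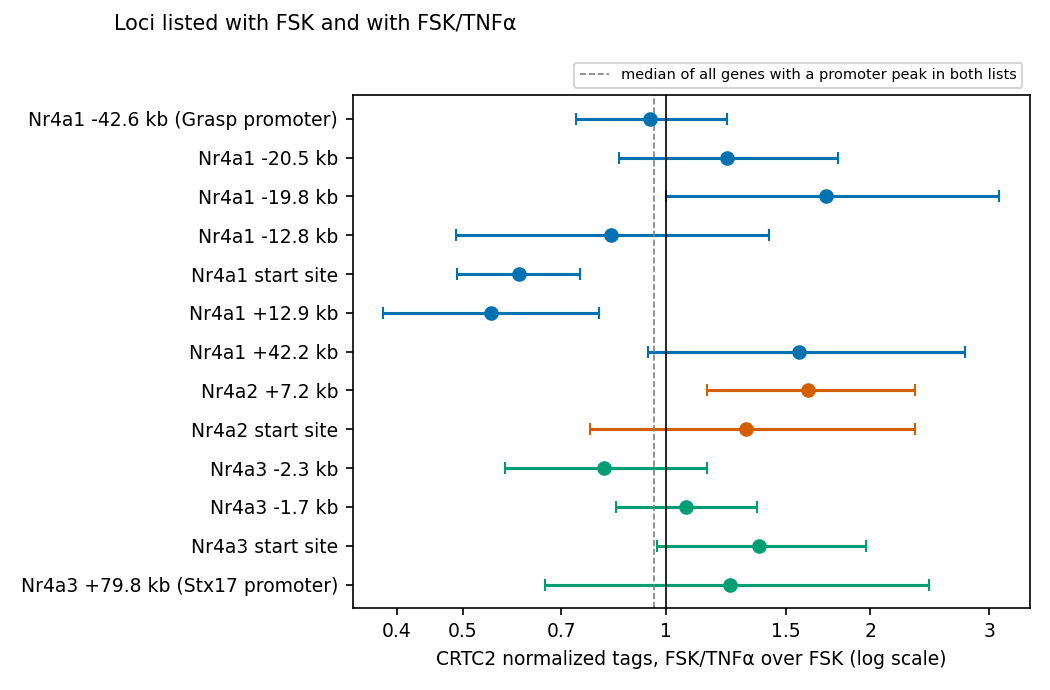
Ratio of CRTC2 normalized tags, FSK/TNFα over FSK (log axis), at the 13 NR4A loci listed in both libraries, from peaks called separately in each, with exact conditional 95% intervals of counting error. The dashed line is the median of 0.959 over genes with a promoter peak in both lists, and the intervals of the Nr4a1 start and of its locus 12.9 kb downstream lie below 1 while that of the Nr4a2 intron lies above it.

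p65 peaks were few at these genes. No NR4A promoter had a p65 peak in any library, and such peaks were rare at all genes, at 0.087% in control, 0.503% with FSK, 0.558% with TNFα and 0.952% with FSK/TNFα. Only 2 p65 peaks lay in the windows, both near Nr4a1. One, of 11.6 normalized tags (7.79 to 16.7), was listed with FSK alone 23.4 kb upstream of the main start, and the other, of 16 (11.6 to 21.5), with TNFα alone at the Atg101 promoter, 16.5 kb downstream. At least 1 p65 peak in the same window was found for 16.9% of genes with FSK, 14.9% with TNFα and 22.3% with FSK/TNFα, beside 1, 1 and 0 of the 3 NR4A genes. No CRTC2 and p65 peaks of the same treatment overlapped, and the nearest pairs lay 2277 bp apart with FSK and 833 bp apart with TNFα. With 1 p65 peak in each of these libraries and 0 in the other 2, this was nearly fixed, and over the genome 2.19% of p65 peaks with FSK and 5.07% with TNFα overlapped a CRTC2 peak.

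H3AcK27 differed among the 3 genes in control cells. A region overlapped a promoter of each gene in every library, as it did for 51.1% of genes in control, 46.3% with FSK, 50.8% with TNFα and 48.6% with FSK/TNFα. At Nr4a1 the main start lay in no region in control. With FSK it lay in a region of 3.95 kb with 137.3 normalized tags, and with FSK/TNFα in one of 4.03 kb with 143.0. With TNFα a region of 500 bp and 15.4 normalized tags lay upstream and did not reach the start. A start inside a region with FSK and FSK/TNFα and in neither other library was found at 47 of 41438 start sites, or 0.113%. Both Nr4a1 regions were close to the threshold of 4-fold over input, at 4.73-fold and 4.92-fold, and neither would be listed at 8-fold. The upstream Nr4a1 start had the opposite listing, with regions in control (24.3 normalized tags) and with TNFα (32.5) and none in the forskolin libraries. Those regions were close to the threshold as well, at 5.2-fold and 4.65-fold. As for CRTC2, control and TNFα lists were called against untreated input and the forskolin lists against FSK-treated input. Neither Nr4a1 listing can be told apart from the choice of input. In the FSK library the Nr4a1 locus 12.9 kb downstream also lay in a region, of 76.3 normalized tags, that was listed under no other treatment.

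At Nr4a2 the main start was inside a region in all 4 libraries, and the region was longer with FSK. In control it was 2.18 kb long with 34.8 normalized tags per kb, and a separate region of 3.14 kb covered the intronic CRTC2 locus. With TNFα it was 1.57 kb long with 48.1 per kb. With FSK 1 region of 9.30 kb with 82.6 per kb reached from the promoter to the intronic locus. With FSK/TNFα the start region was 3.11 kb long with 58.0 per kb, beside an intronic one of 6.0 kb. Within the gene and 5 kb around it, regions covered 5320 bp in control, 9299 with FSK, 5660 with TNFα and 9117 with FSK/TNFα.

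At Nr4a3 a region of 2.60 kb in control covered the upstream CRTC2 loci and ended 52 bp before the start. It had 82.2 normalized tags per kb. The regions were 3.65 kb with 95.9 per kb with FSK, 3.67 kb with 64.2 per kb with TNFα and 4.16 kb with 83.1 per kb with FSK/TNFα, and all 3 included the start. The median promoter region of all genes had 62.4, 69.2, 67.6 and 70.2 normalized tags per kb in control, FSK, TNFα and FSK/TNFα. Nr4a3 was thus above the median in 3 of the 4 libraries and below it with TNFα, and the main-start regions of Nr4a1, at 34.8 and 35.5 per kb, were below it. The main-start region of Nr4a2 was above the median with FSK, at 82.6 per kb, and below it in control, with TNFα and with FSK/TNFα. The medians, however, cover all genes with a region over any of their starts, so the main start alone is an unlike measure. The region with the most tags over any Nr4a2 start had 76.9 per kb in control, 82.6 with FSK, 74.5 with TNFα and 67.6 with FSK/TNFα. By that measure Nr4a2 was above the median except with FSK/TNFα. The FSK library of H3AcK27 was the shallowest of the 12, with 9832884 tags, and the part of this in the listing of regions was not tested.

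Other CREB targets and other nuclear receptors give the setting for the family. Of 18 cAMP and CREB target genes, CRTC2 promoter peaks were listed at 8 in control, 13 with FSK, 12 with TNFα and 13 with FSK/TNFα. Junb, an AP1 subunit, had 44.5, 97.9, 151.5 and 90.9 normalized tags in that order. Dusp1, a MAP kinase phosphatase, was not listed in control and had 75.4, 103.1 and 76.1, and Btg2, an antiproliferative gene, was not listed in control and had 70.6, 60.1 and 66.0. With TNFα these 3 genes were all listed, and by the same rule over all start sites Nr4a1 was too, at 8.31, while Nr4a2 and Nr4a3 were not. Of 46 nuclear receptor genes outside the family, 5 were listed in control, 12 with FSK, 16 with TNFα and 11 with FSK/TNFα, close to the shares of all genes. The highest of these with FSK/TNFα were Vdr, the vitamin D receptor, with 32.2 with FSK, 19.3 with TNFα and 29.6 with FSK/TNFα; Rara, a retinoic acid receptor, with 26.1 with FSK/TNFα; and the orphan receptor Nr6a1 with 20.4. With FSK Rara had 15.8 and Nr6a1 19.5. In the FSK library Nr4a1, at 104.0, was above these 3, Nr4a3, at 28.0, was below Vdr, and Nr4a2, at 12.2, was below all 3. In the FSK/TNFα library Nr4a1, at 62.9, and Nr4a3, at 38.4, were above these 3, and Nr4a2 was below them. Of 16 NF-κB target genes, CRTC2 promoter peaks were listed at 6, 13, 14 and 13 in the order control, FSK, TNFα and FSK/TNFα, and p65 promoter peaks at 1, 1, 5 and 7. Nfkb2, the gene of the p100 precursor, had p65 peaks of 55 with TNFα and 59.5 with FSK/TNFα, Traf1, a TNF receptor adaptor, had 28.3 with FSK/TNFα, and the chemokine gene Cxcl1 had 23.8 and 23.4.

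**Figure D4:**
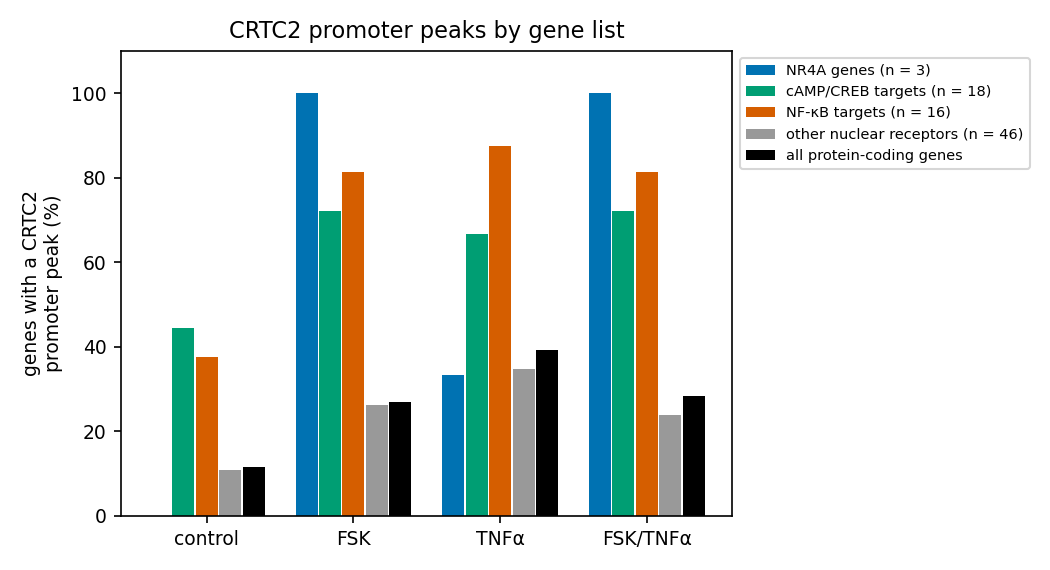
Share of genes (%) with a CRTC2 promoter peak in each library for the 3 NR4A genes, 18 cAMP/CREB targets, 16 NF-κB targets, 46 other nuclear receptors and all protein-coding genes. The NR4A bar is at 0 in control, at its full height with FSK and FSK/TNFα, and below the bar of all genes with TNFα (33.3% against 39.1%).

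The genes whose promoter profile was most like that of each member were found by the distance between log2(normalized tags + 1) over the 8 CRTC2 and p65 libraries, with 0 where no peak was listed. Nearest to Nr4a1 was Rbks, the ribokinase gene, at a distance of 0.997, with CRTC2 at 104.6, 13.2 and 109.4 normalized tags with FSK, TNFα and FSK/TNFα. Zkscan6 (1.47) and Atp5d (1.66) followed. The profile takes the strongest promoter peak over all starts of a gene. For Nr4a1 the TNFα value of 8.31 came from the upstream start, and the main start was not listed with TNFα. Nearest to Nr4a2 were Usp7 (0.0719), Sult2b1 (0.101) and Lin37 (0.124), all at low tags. Nearest to Nr4a3 was Usp2 at 0.208, with 32.2 normalized tags with FSK and 36.5 with FSK/TNFα, before Tns2 (0.416) and Zfp213 (0.546). Usp2 was also among the 14 FSK windows with 2 or more TGCGTCA.

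The libraries held between 9832884 and 31807394 tags, and the CRTC2 lists 5188 peaks in control, 11749 with FSK, 19527 with TNFα and 14171 with FSK/TNFα. As a check of the cells, H3AcK27 regions lay over the promoters of 3 of 8 adipocyte marker genes in every library (Fabp4, Pparg and Lpl), and in control all 8 had a region within 10 kb of the gene. Adipoq, Plin1, Cebpa, Cidec and Cd36 had none over the promoter itself. The share of adipocyte markers with a promoter region was 37.5% in every library. Of all genes it was 51.1% in control, 46.3% with FSK, 50.8% with TNFα and 48.6% with FSK/TNFα. Promoter regions thus did not set adipocyte markers above genes at large. Macrophage promoters had 1 or 2 of 6 (Csf1r and Cd68), and hepatocyte and neuronal promoters had 0 of 3 each. Within 10 kb of the gene in control, 3 of 6 macrophage, 3 of 3 neuronal and 0 of 3 hepatocyte markers had a region, so that wider measure did not set adipocyte markers apart from neuronal ones.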

How the data were processed

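ChIP-seq peak lists for CRTC2, p65 and H3AcK27 under 4 treatments were used, 12 lists with 1 library each, grouped by their labels. The NR4A genes and all gene lists were chosen with earlier results of these data known. Per the labels, reads were placed on mm10, and the submitters' processing notes name STAR and HOMER without versions. Each list is the authors' HOMER findPeaks output for 1 library. Deposited values were the normalized tag signal of a peak per 10000000 tags, and a score that counts at most 1 tag per position for CRTC2 and p65. Total tag counts were deposited for the same peaks. The deposited fold values are ratios over input or over the surrounding 10 kb and were at least 4 over input. Deposited p-values against input were not used here. A peak below threshold is in no list, so a shallower library can miss weaker peaks, and totals ran from 9832884 to 31807394 tags.

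Raw tags were recovered from normalized tags and library totals. Intervals are exact Poisson for tags and exact conditional binomial for ratios, both at 95%. They cover counting error only and treat every tag as independent. PCR copies are not, so the intervals may be too narrow. Genes came from GENCODE release 21 (basic set), and sequences from RefSeq GRCm38. No peak ran past a chromosome end, and 48.3% of start sites lay in H3AcK27 control regions, against 6.06% after a shift of 1 Mb. Named genes were the members, up to 3 genes of each list with the most promoter tags with FSK/TNFα, the 3 nearest profiles, and neighbours with a peak. Usp2, Isy1 and Rheb were named for their motifs after their values were seen. CREs are TGACG on either strand. Alternatives covered the fold threshold, list size, promoter and window extents, start sites, ranking, overlap rule and motif window. The overlap and interval code was tested on simulated data. The software was samtools 1.23.1 and Python 3.11.15 with matplotlib 3.10.9, pandas 2.3.3, pysam 0.24.0, numpy 2.4.6 and scipy 1.17.1. Ratios to control had been planned but could not be formed, because no NR4A promoter was listed in control. Sequencing reads were not analysed here.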

Additional observations from a re-analysis of the deposited data

How the results depend on the processing

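No paired analysis was possible because each antibody and treatment had 1 library. Of 98 alternative values, 68 stayed within the counting interval or within 1.5 times the count, 30 moved and 0 reversed. Most of these values are counts or ranks, which have no direction, so only the ratios could have reversed. CRTC2 promoter peaks were listed at 0 NR4A genes in control and at 3 with FSK/TNFα under the 8-fold threshold, the wider promoter, equal list sizes and the outermost start site alone. With FSK they were listed at 3 genes under these settings except equal list sizes, which left 2 and dropped Nr4a2. The control count could rise only with the wider promoter. The other settings remove peaks or starts, and 5188 peaks is the whole control list. At Nr4a1 the outermost start is the upstream one, so that setting did not take in its main promoter. With TNFα the 1 gene with a promoter peak became 0 at 8-fold over input and 0 with lists of equal size, and 2 with a wider promoter, which took in the intronic Nr4a2 peak upstream of an internal start. CRTC2 peaks in the windows changed from 18 to 11 with FSK and from 11 to 6 with TNFα when lists were limited to 5188 peaks, and the TNFα count was 7 within 20 kb. p65 peaks fell from 1 to 0 with FSK and with TNFα at 8-fold and at equal list size. Within 100 kb they numbered 2 with TNFα and 1 with FSK/TNFα. H3AcK27 regions in control, FSK, TNFα and FSK/TNFα numbered 16, 17, 18 and 17 within 50 kb. They were 8, 9, 10 and 9 within 20 kb, then 27, 27, 30 and 30 within 100 kb, and 8, 8, 10 and 4 at 8-fold over input. By fold over input instead of score, the start-site peaks ranked 1 and 13 at Nr4a1, 1450 and 1022 at Nr4a2, and 3618 and 7 at Nr4a3 with FSK and FSK/TNFα. Fewer or wider places were counted by construction in the window, threshold and list-size settings. Ranks by fold rest on scaled input of 0.3 to 3.0 tags under these peaks. The ratio of FSK/TNFα over FSK, its scaling and the letters TGCGTCA were chosen after the data were seen. Less input tags, the ratio was 0.602, 1.32 and 1.46 at Nr4a1, Nr4a2 and Nr4a3, and scaled to the median of genes it was 0.631, 1.37 and 1.43. Ratios to control could not be formed under any setting. Listing rests on thresholds, so at this depth a place that is not listed cannot be called unbound.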
